A study of Mus musculus with 4 samples.

Results

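The RNA content of wild-type mouse embryonic stem cells was profiled in 2 clones, which are 2 of the 4 samples of the series. Embryonic stem cells are cultured cells of the inner cell mass of the blastocyst that can give rise to the tissues of the body. The study removed Gcn5 (Kat2a), a histone acetyltransferase, and the WT clones are its controls. Both WT clones are Gcn5 flox/flox: they carry loxP sites around exons 3 to 18 of Gcn5 and were picked from the cells without GFP that a sort returned 72 hours after transient transfection with a GFP-Cre vector. WT replicate 1 is a clone of founder line 4 and WT replicate 2 a clone of founder line 6, both from blastocysts of Gcn5 flox/flox mice, and all the newly derived lines had a normal male karyotype by the labels' account. Each replicate is 1 clone of 1 line, so clone and founder line cannot be told apart. The cells were grown with 15% serum and 1000 U/mL of LIF, a cytokine that keeps them from differentiating, on mitomycin-treated embryonic fibroblasts. No source used here says whether these feeder fibroblasts were removed before lysis. Total RNA was depleted of ribosomal RNA, and 1 µg of it had been spiked with 2 µL of ERCC control RNA (synthetic transcripts of known amount) at 100-fold dilution. The WT samples are described here alone, all entries but the 92 spike-ins were used, and no test was made, as 2 clones of 1 group allow none.

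Stem cells of this kind divide quickly and have a short G1 phase. Much of the RNA of any dividing cell encodes the machinery that makes proteins and packages DNA, while the transcription factors that define a cell type are far scarcer. Pluripotent cells express the factors Pou5f1, Sox2 and Nanog, and are known for open chromatin with many tissue-specific genes held silent.

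The values are FPKM (fragments per kilobase of transcript and per 1000000 fragments) scaled by the spike-ins. FPKM divides by length, so levels of different genes can be compared, but short entries reach high values from few fragments, and the number of reads behind a value is unknown. There were 23284 entries, and 23013 of them matched a RefSeq gene by current or older name. Their FPKM summed to 758615 in WT replicate 1 and to 680743 in WT replicate 2. The lowest value was 0.0094 FPKM in replicate 1, held by 4112 entries within a tolerance of 0.1%, and 0.0107 in replicate 2, held by 4321. These entries carried no signal that the files distinguish, and 3506 of them were at the lowest value in both clones. Kat2a was listed at 38.7 FPKM in replicate 1 and 34.4 FPKM in replicate 2.

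About equal numbers of entries were expressed and silent. With expression set at 1 FPKM, 12192 entries reached it in replicate 1 and 12019 in replicate 2. In both clones it was reached by 11707 of 23284 entries, or 50.3%, and 10780 entries, or 46.3%, were under it in both. The other 797 lay on opposite sides of 1 FPKM, 485 above it in replicate 1 and 312 above it in replicate 2, and in 694 of them even the higher value was under 2 FPKM. The expressed entries held 99.7% of the summed FPKM in replicate 1 and 99.6% in replicate 2. In both clones, 5795 entries reached 10 FPKM, 849 reached 100 FPKM and 135 reached 1000 FPKM. The median level of the expressed entries was 12.1 FPKM in replicate 1 and 10.3 FPKM in replicate 2.

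A small set of entries made up most of the profile. The 10 most abundant entries of each clone held 10.2% of its summed FPKM in replicate 1 and 10.7% in replicate 2. The top 100 held 39.1% and 38.4%, a mean of 38.8% ± 0.492 (SD, n = 2), and the top 1000 held 74.2% and 74.1%. It took 171 entries in replicate 1 and 178 in replicate 2 to reach 50% of the sum, and 3480 and 3422 to reach 90%. The clones therefore gave nearly the same concentration of the profile, although of their top 10 entries 7 were shared, of their top 100 entries 93, and of their top 1000 entries 913.

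**Figure D1:**
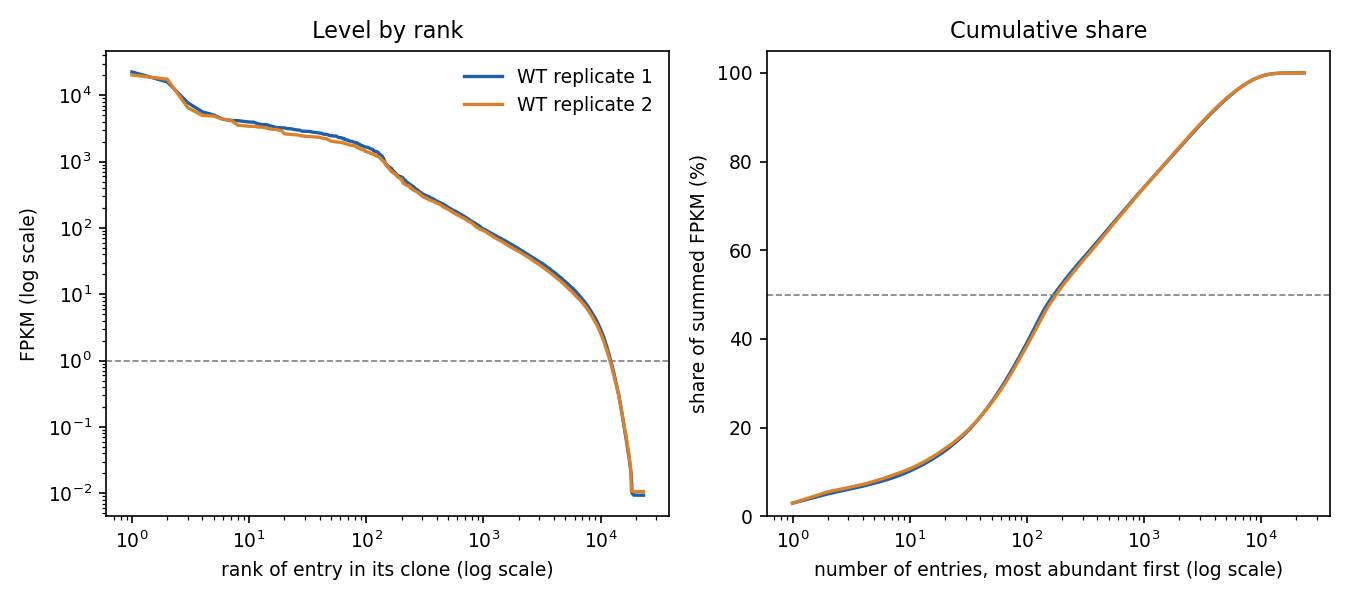
Left, FPKM of each entry against its rank in its clone, both on log scales, with 1 FPKM dashed; right, cumulative share of the summed FPKM in percent against the number of entries counted from the most abundant down, with 50% dashed. The curves of WT replicate 1 (blue) and WT replicate 2 (orange) nearly coincide, crossing 50% at 171 and 178 entries and falling to the lowest values of 0.0094 and 0.0107 FPKM at the right.

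The most abundant entries were catalytic RNAs. Rmrp, the RNA of the RNase MRP enzyme that processes the ribosomal RNA precursor, stood at 22469 FPKM in replicate 1 and 20227 FPKM in replicate 2. Rpph1, the RNA subunit of RNase P, which trims transfer RNA precursors, stood at 15888 and 17439 FPKM. These were the first and second of all entries by mean, and both are short, noncoding RNAs. Eef1a1, the elongation factor that carries transfer RNAs to the ribosome, came next at 7705 and 6484 FPKM and was the most abundant protein-coding entry. It was followed by the histone gene Hist1h2bl at 5609 and 4214 FPKM and the ribosomal protein gene Rps12 at 5037 and 4334 FPKM. All 3 lay higher in replicate 1.

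Below them stood Ptma, which encodes the acidic nuclear protein prothymosin alpha, at 4340 and 3299 FPKM, Ppia, the proline isomerase cyclophilin A, at 3258 and 3469 FPKM, and Ftl1, the ferritin light chain that stores iron, at 3955 and 2602 FPKM. The nucleolar chaperone Npm1 stood at 3023 and 3108 FPKM. Rn45s, the ribosomal RNA precursor, ranked 12 by mean, at 3608 and 3199 FPKM in libraries from which ribosomal RNA had been removed. The first entry tied to stem cell identity was Dppa5a, an RNA-binding protein of pluripotent cells, at rank 25 with 3124 and 2390 FPKM. Of the 100 entries with the highest mean, 54 encoded cytoplasmic ribosomal proteins, 15 were small nucleolar RNAs, 5 translation factors, 4 replication-dependent histones and 4 chaperones or folding enzymes.

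Genes of the cytoplasmic ribosome were the largest class. The 86 entries named Rpl, Rps, Rpsa or Rplp held 21.9% of the summed FPKM in replicate 1 and 20.4% in replicate 2, a mean of 21.1% ± 1.07 (SD, n = 2). In both clones 85 of them reached 1 FPKM and 81 reached 100 FPKM, so this class was above the 50.3% of all entries that were expressed. The member below was Rpl3l, a paralog known from muscle, at 1.05 FPKM in replicate 1 and 0.928 FPKM in replicate 2. The highest after Rps12 were Rps2, at 4036 and 3051 FPKM, and Rpl41, at 3618 and 3397 FPKM. Processed pseudogenes of these genes are nearly identical to them, so how reads were divided between gene and copy is uncertain. Among the entries without a gene name, Gm15772 stood at 2992 and 2328 FPKM and Gm12191 at 2116 and 1777 FPKM, and RefSeq types both as transcribed pseudogenes.

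Other parts of the protein-making machinery followed, and were expressed more often than the 50.3% of all entries. Translation factors, 74 entries of which 71 were expressed, held 3.53% and 3.50% of the sum in replicates 1 and 2, with Gnb2l1 (a scaffold protein of the small ribosomal subunit) at 2284 and 1952 FPKM and the helicase Eif4a1 at 1707 and 1776 FPKM. Chaperones and folding enzymes held 2.99% and 3.33%, with 86 of 106 expressed. Their leading members after Ppia were Hspa8, a constitutive chaperone, at 2218 and 3313 FPKM, and Hsp90aa1 at 2844 and 2346 FPKM, which differed between the clones in opposite directions. Nucleolar ribosome biogenesis genes were expressed in 49 of 49 cases, aminoacyl tRNA synthetases in 39 of 39 and mitochondrial ribosomal protein genes in 76 of 76. Their shares were smaller, at 1.18% ± 0.113, 0.439% ± 0.0137 and 0.467% ± 0.0222 (mean and SD, n = 2).

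Energy metabolism took a few percent. The 92 entries for subunits of oxidative phosphorylation, the mitochondrial chain that makes ATP, held 2.15% in replicate 1 and 2.12% in replicate 2. Of them 87 were expressed, against 50.3% of all entries. The ATP synthase subunit Atp5b led them at 1411 and 1206 FPKM. The 18 glycolytic enzyme entries were all expressed and held 1.50% in replicate 1 and 1.03% in replicate 2. Pkm2, the pyruvate kinase gene, stood at 2738 and 2019 FPKM, Aldoa, an aldolase, at 2133 and 1117 FPKM, and Pgk1, phosphoglycerate kinase, at 1749 and 878 FPKM. All 3 were lower in replicate 2, and the class as a whole is taken up again with the comparison of the clones. The glucose transporter Slc2a3 was among the 3 highest of 370 solute carriers, at 610 and 336 FPKM.

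Genes for chromatin and for division were nearly all expressed, where 50.3% of all entries were. Of the 68 replication-dependent histone genes, whose mRNAs lack poly(A) tails and are captured in a total RNA library, 67 reached 1 FPKM in both clones. They held 4.63% of the sum in replicate 1 and 3.91% in replicate 2, led by Hist1h2bl, by Hist1h4j at 4147 and 3537 FPKM and by Hist1h3h at 2882 and 2414 FPKM. Histone genes have near-identical copies, so the level of a single one is uncertain. The 12 variant and linker histone genes held 0.266% and 0.321%, with H2afz, a variant found at promoters, at 718 and 924 FPKM. Of 153 genes of DNA replication and the cell cycle, 148 were expressed, including Pcna, the sliding clamp of DNA polymerase, at 341 and 424 FPKM, and Cdk4, a G1 kinase, at 328 and 342 FPKM. Splicing and heterogeneous nuclear RNP genes were expressed in 101 of 102 cases and held 1.83% ± 0.153 (mean and SD, n = 2), with Hnrnpk, an RNA-binding protein, at 680 and 679 FPKM.

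Cytoskeleton genes held 1.31% in replicate 1 and 1.57% in replicate 2, of which the beta-actin gene Actb stood at 1926 and 1756 FPKM. Proteasome and ubiquitin genes, which serve protein breakdown, held 1.35% and 1.53%, led by Ubb, a polyubiquitin gene, at 1009 and 987 FPKM. Zinc finger genes were many but low: 341 of 451 were expressed, 75.6% against 50.3% of all entries. None reached 100 FPKM in both clones, and together they held 0.412% in each clone. Entries that RefSeq types as protein coding numbered 20260 and held 79.3% and 79.8% of the sum. Those it types as long noncoding RNA numbered 1661, of which 282 were expressed, 17.0% against 50.3% of all entries. They held 0.765% and 0.762% of the sum. Snhg1, a host of small nucleolar RNAs, stood at 689 and 664 FPKM, and Malat1, a nuclear RNA, at 553 and 338 FPKM.

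**Figure D2:**
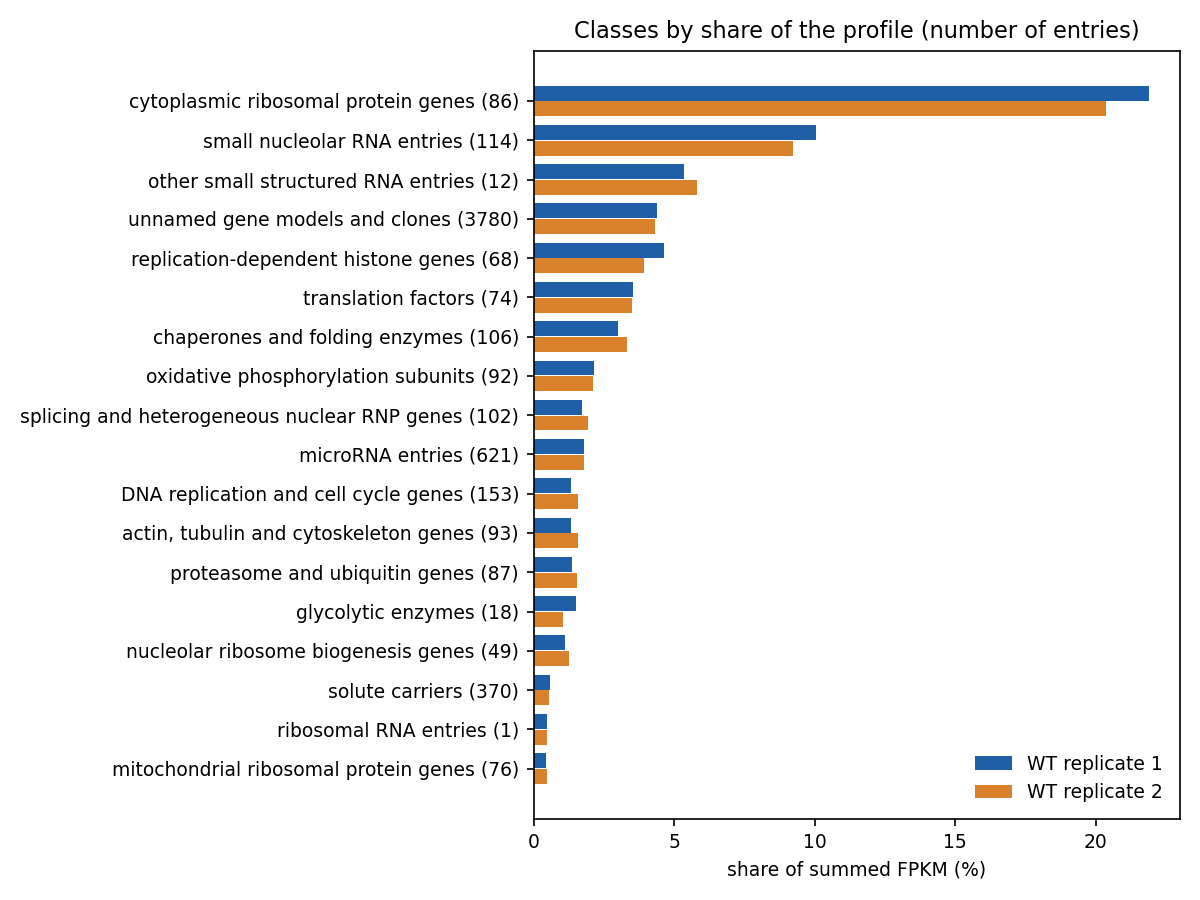
Share of the summed FPKM (percent, axis from 0) of the 18 largest named classes in WT replicate 1 (blue) and WT replicate 2 (orange), with the number of entries in brackets; entries of other named genes are not shown. Cytoplasmic ribosomal protein genes lead with 21.9% and 20.4%, ahead of small nucleolar RNA entries with 10.0% and 9.21%.

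Short RNA entries held 17.2% of the summed FPKM in replicate 1 and 16.8% in replicate 2, a mean of 17.0% ± 0.258 (SD, n = 2). They were 747 entries, 384 of them expressed, a share of 51.4% that is close to the 50.3% of all entries. Many small nucleolar RNAs guide chemical modification of ribosomal RNA. Their class, set by name pattern, also holds Scarna entries such as Scarna13, which RefSeq types as guide RNA. It counts 114 of the short RNA entries. In both clones 110 of them were expressed, and they held 10.0% and 9.21%. The 12 other small structured RNAs held 5.36% and 5.81%, most of it in Rmrp and Rpph1, and included Terc, the telomerase RNA, at 165 and 132 FPKM. The 621 microRNA entries held 1.78% in each clone, with 265 (42.7%) expressed, somewhat below the share of all entries.

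Most small nucleolar RNAs lie within a host gene, so reads of the host can fall on the entry. A host was called by position alone, and its strand was not compared with that of the short entry. A single host among the entries was found for 103 of the 114, and in 31 cases it was a ribosomal protein gene. Across these entries, the level of the short entry and that of its host had a Spearman correlation of 0.910 in each clone. This is a description across entries, which are not independent. Snord42b, at 4179 and 3406 FPKM, lies in Rpl23a, which stood at 3217 and 2558 FPKM. Snord100, at 3484 and 3050 FPKM, lies in Rps12, and Snord34, at 3225 and 2628 FPKM, in Rpl13a. In 48 of the 103 cases the short entry was listed above its host.

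MicroRNA entries followed their hosts in the same way. A single host was found for 384, and the Spearman correlation with the host was 0.904 in replicate 1 and 0.896 in replicate 2. Of 262 with an expressed host, 226 were expressed, and of 117 with a host under 1 FPKM in both clones, 3 were. Many entries share a host, such as the Mir467a and Mir669a copies within Sfmbt2, some of them with identical values. The counts and correlations therefore do not rest on independent entries. The highest microRNA entries were Mir5121, at 2686 and 2218 FPKM within Rpl13a (3124 and 2522 FPKM), and Mir677, at 1670 and 1379 FPKM within Atp5b. An FPKM on such an entry is a value of the locus, not of the mature microRNA, and the part of it that comes from host transcript was not tested.

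The loci of the microRNA clusters best known from mouse embryonic stem cells were all listed above 1 FPKM. MicroRNAs silence mRNAs that pair with their seed, bases 2 to 8 of the mature strand. The miR-290 and miR-302 families are abundant in pluripotent cells, and the let-7 family is known to accumulate on differentiation. All 7 entries of the miR-290 cluster reached 1 FPKM, from 40.3 to 77.1 FPKM in replicate 1 and from 26.1 to 38.8 FPKM in replicate 2. All 4 entries of the miR-302 cluster did, from 26.9 to 32.1 FPKM and from 37.6 to 40.9 FPKM. Every miR-290 entry was higher in replicate 1 and every miR-302 entry higher in replicate 2, with 1 of the 11 at least 2-fold apart as deposited, Mir295, at 77.1 and 36.3 FPKM. The miR-302 entries lie within the bounds of Larp7, whose strand was not compared with theirs. Larp7 stood at 30.2 and 37.7 FPKM, the same level and clone order as the miR-302 entries. Of 11 let-7 entries, 5 (45.5%) were expressed, near the 42.7% of all microRNA entries, so the count shows nothing particular to let-7. Mirlet7g stood at 57.5 and 58.8 FPKM within Wdr82, which was at 54.3 and 53.7 FPKM, and Mirlet7b and Mirlet7c-1 at the lowest value of each clone. These mature sequences from RefSeq (GRCm38.p6) show the shared seed in capitals, AAGUGCU in 5 members of the miR-290 and miR-302 clusters, then a related seed, and GAGGUAG in a let-7 of a locus above and one of a locus below 1 FPKM:
miR-291a-3p: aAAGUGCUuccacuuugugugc
miR-294-3p: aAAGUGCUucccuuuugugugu
miR-295-3p: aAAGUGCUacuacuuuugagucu
miR-302b-3p: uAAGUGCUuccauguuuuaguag
miR-302d-3p: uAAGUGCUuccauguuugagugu
miR-290a-3p: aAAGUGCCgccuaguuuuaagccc
let-7g-5p: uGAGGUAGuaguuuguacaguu
let-7b-5p: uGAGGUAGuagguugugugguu

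Transcripts of pluripotency were present throughout the lists. Of the 63 genes in the core, naive and further stem cell marker lists, 62 matched an entry, and all 62 reached 1 FPKM in both clones, against 50.3% of all entries, and 13 reached 100 FPKM. Together they held 1.35% of the sum in replicate 1 and 1.29% in replicate 2. The lists were drawn up with earlier results of these data known.

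Core factors ranged over 2 orders of abundance. Pou5f1, the POU-domain factor Oct4, stood at 715 FPKM in replicate 1 and 782 FPKM in replicate 2. Tdgf1, a Nodal co-receptor, stood at 816 and 578 FPKM, and Trim28, a corepressor of retroviral elements, at 576 and 745 FPKM. Sox2, the partner of Oct4, was at 161 and 119 FPKM and Nanog at 160 and 103 FPKM. Pou5f1 mRNA was thus several times as abundant per length as that of Sox2 or Nanog in each clone. Lin28a, which blocks let-7 maturation, followed at 89.6 and 116 FPKM. Rif1, which acts in replication timing and telomere repair, stood at 82.4 and 94.0 FPKM, and Esrrb, an orphan nuclear receptor, at 94.1 and 60.1 FPKM. These middle members were close in level, and their order changed from clone to clone. Utf1, a chromatin factor of undifferentiated cells, was at 67.9 and 78.4 FPKM. Sall4, a zinc finger factor, was at 53.5 and 63.1 FPKM, and Nr0b1 (Dax1), an orphan nuclear receptor, at 45.1 and 45.3 FPKM. The zinc finger factor Zfp281 was at 21.1 and 26.0 FPKM. The lowest was Lin28b, the paralog of Lin28a, at 7.76 and 11.0 FPKM. In the order of means, the neighbours Sox2 and Nanog differed by less than the spread between the clones.

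Naive factors, which mark the state of the preimplantation epiblast and of LIF culture, were lower. Their median was 33.4 FPKM in replicate 1 and 15.9 FPKM in replicate 2, against 86.0 and 86.2 FPKM for the core list. The highest was Dppa3, a maternal factor that protects DNA methylation, at 124 and 86.4 FPKM. Klf4 stood at 93.9 and 53.7 FPKM and the growth factor gene Fgf4 at 83.4 and 50.1 FPKM. These 3 were higher in replicate 1. Of the other Krüppel-like factors, Klf2 was at 48.8 and 39.5 FPKM and Klf5 at 32.8 and 29.1 FPKM. Tfcp2l1, a transcription factor downstream of Stat3, was at 55.4 and 26.2 FPKM. Zfp42 (Rex1), a widely used marker of the naive state, was at 41.8 and 34.5 FPKM, while Tcl1, a coactivator of the kinase Akt, was further apart at 54.4 and 17.2 FPKM. The LIF pathway was represented from receptor to target. The receptor subunit Lifr stood at 11.6 and 8.82 FPKM and its partner Il6st (gp130) at 19.3 and 15.2 FPKM. The signal transducer Stat3 was at 35.4 and 23.5 FPKM, and Socs3, its target and feedback inhibitor, at 44.2 and 14.1 FPKM. Pecam1, Zfp296, Sox15, Nr5a2, Tbx3 and Prdm14 lay between 6.02 and 33.4 FPKM in replicate 1 and between 3.64 and 15.9 FPKM in replicate 2. Gbx2, at 3.90 and 7.63 FPKM, was the member higher in replicate 2, and the other 18 were higher in replicate 1.

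Further stem cell markers were led by Dppa5a, by Spp1, a secreted phosphoprotein, at 620 and 367 FPKM, and by Chchd10, a mitochondrial protein, at 394 and 266 FPKM. Of the 19 primed epiblast genes, which mark the state after implantation, 16 were expressed in both clones, against 50.3% of all entries. The medians over the 19 were 2.93 and 6.73 FPKM. The highest were Dnmt3b, a de novo DNA methyltransferase that is also on the stem cell marker list, at 84.3 and 204 FPKM, Etv5 at 67.5 and 72.1 FPKM and Etv4 at 45.6 and 42.2 FPKM.

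Markers of most differentiated cell types were expressed less often than the 50.3% of all entries, while extraembryonic endoderm and trophectoderm genes were expressed about as often as that share or more. Of 18 primitive streak genes, 3 were expressed, led by Lefty2, a Nodal antagonist that stem cells also express, at 42.0 and 69.5 FPKM. Of 17 ectoderm genes, 6 were expressed, led by the tubulin gene Tubb3 at 25.0 and 35.9 FPKM, and of 13 definitive endoderm genes 1 was, Hhex, at 1.86 and 1.76 FPKM. Extraembryonic endoderm genes were expressed in 13 of 21 cases and trophectoderm genes in 9 of 19. The former were led by the lipid carrier gene Apoe at 861 and 631 FPKM, a gene of many cell types, while Afp was listed at 0.0094 and 0.0108 FPKM. Of the latter, Phlda2 stood at 23.1 and 47.6 FPKM. Blood genes were expressed in 1 of 16 cases (Cd68), endothelial genes in 2 of 11 (Pecam1, which the naive list holds too, and Tek) and muscle genes in 3 of 14. Genes of the rare 2-cell-like state reached 1 FPKM in 3 of 14 cases, the highest of them Eif1a, at 71.0 and 74.1 FPKM, then Gm8300 at 4.67 and 4.31 FPKM and Zscan4a at 1.85 and 4.20 FPKM. In a bulk sample, few cells with much of a transcript and many cells with little of it cannot be told apart.

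Fibroblast transcripts were present at low levels. Of 40 feeder fibroblast genes, 37 reached 1 FPKM in both clones, against 50.3% of all entries. None reached 100 FPKM in both, and their medians were 9.46 and 6.35 FPKM. Their summed level was 845 FPKM in replicate 1 and 757 FPKM in replicate 2, which is 0.111% of the sum in each clone. Fn1, the matrix protein fibronectin, led them at 132 and 76.6 FPKM. The calcium-binding protein genes S100a6, at 90.3 and 115 FPKM, and S100a4, at 47.1 and 91.7 FPKM, came next. Sparc and Pdgfra are on both the fibroblast and the extraembryonic endoderm lists. The part of the matrix and collagen levels that feeder cells contributed was not tested. Among all 44 collagens, 22 were expressed, with Col18a1 at 116 and 124 FPKM and Col1a2, a fibrillar collagen of fibroblasts, at 53.5 and 28.2 FPKM.

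**Figure D3:**
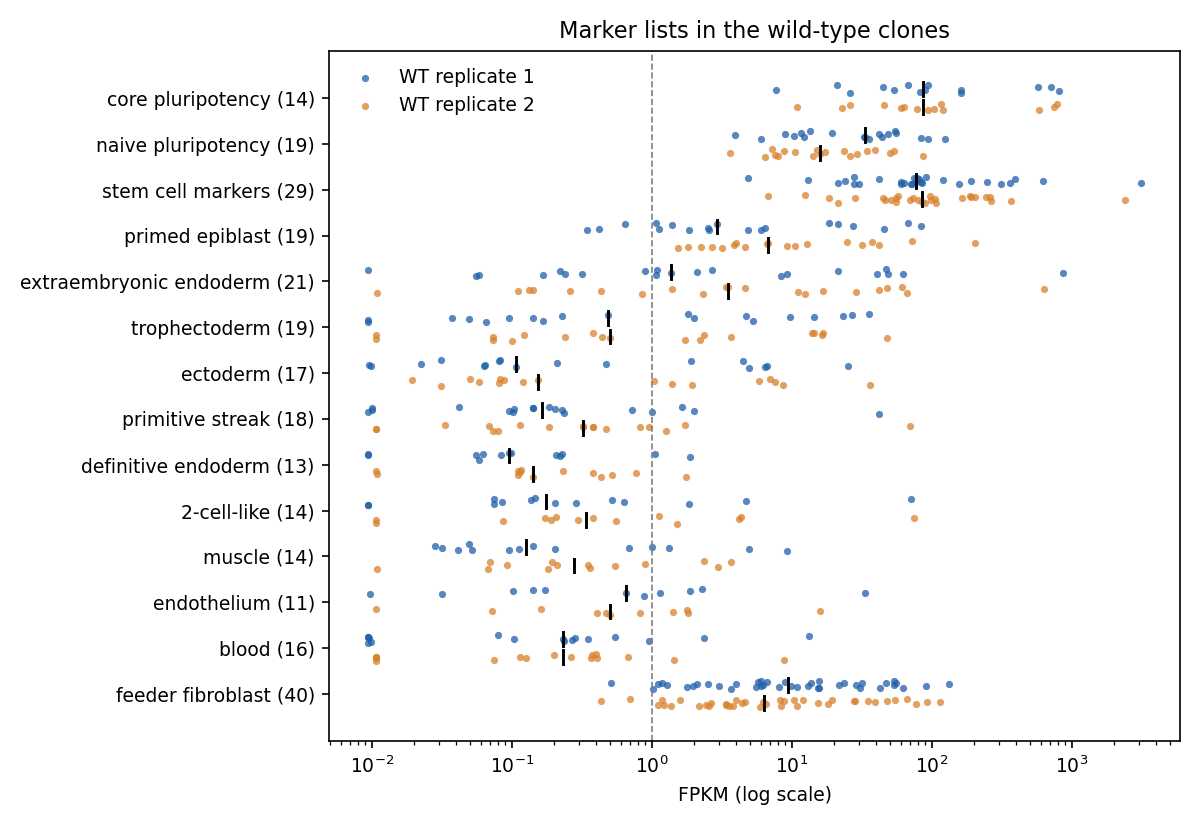
FPKM (log scale) of each member of 14 marker lists in WT replicate 1 (blue) and WT replicate 2 (orange), with the number of members in brackets, black bars at the median of each clone, and 1 FPKM dashed. All members of the 3 stem cell lists lie to the right of 1 FPKM, as do 37 of 40 fibroblast genes in both clones, while most members of the streak, definitive endoderm, blood and muscle lists lie to the left of it.

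Several families of tissue-specific genes were silent or nearly so. Of 1123 olfactory receptor entries, 1121 were under 1 FPKM in both clones, where 46.3% of all entries were silent. At the lowest value in both were 960 of them, against 3506 of all 23284 entries. The 2 that were expressed were Olfr856-ps1, a pseudogene by its name, at 8.97 and 8.07 FPKM, and Olfr613, at 3.94 and 5.65 FPKM. Vomeronasal and taste receptors were expressed in 3 of 392 cases, the highest being Vmn2r-ps129 at 3.45 and 2.56 FPKM. None of 61 defensins, 36 cornified envelope genes or 27 prolactin family genes reached 1 FPKM in both clones.

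The Hox genes, which pattern the body axis, are held silent by Polycomb proteins in stem cells. All 40 were under 1 FPKM in both clones, with Hoxb13, for example, at 0.660 and 0.704 FPKM. Only 1 of the 40 was at the lowest value in both clones, against 960 of the 1123 olfactory receptors. Keratins and keratin-associated proteins were expressed in 4 of 101 cases, with Krt42 at 17.5 and 23.1 FPKM. Cytochrome P450 genes, many of them liver enzymes, were expressed in 6 of 101, with Cyp20a1 at 23.7 and 15.6 FPKM. Ion channels were expressed in 38 of 226 cases, led by the channel kinase Trpm7 at 27.7 and 23.2 FPKM. The expressed shares of the keratin, cytochrome P450 and ion channel classes, 3.96%, 5.94% and 16.8%, were below the 50.3% of all entries.

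Expressed and silent entries differed in the base composition of their promoters. CpG dinucleotides are depleted in the mouse genome outside CpG islands, which overlap the promoters of most widely expressed genes. In the 250 bases before the start given by RefSeq, the number of CpG over that expected from the C and G content was computed for 17530 entries with a window in the table. The median ratio was 0.738 for the 9010 expressed entries and 0.244 for the 7960 silent ones, a difference of 0.494. A ratio of at least 0.6 was found for 69.9% of expressed and 17.3% of silent entries. By mean level, the median ratio was 0.687 from 1 to 10 FPKM, 0.771 from 10 to 100 FPKM, 0.826 from 100 to 1000 FPKM and 0.823 above, so the step from silent to expressed was larger than those between levels. There were 2710 expressed entries under 0.6 and 1375 silent entries at or above it.

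**Figure D4:**
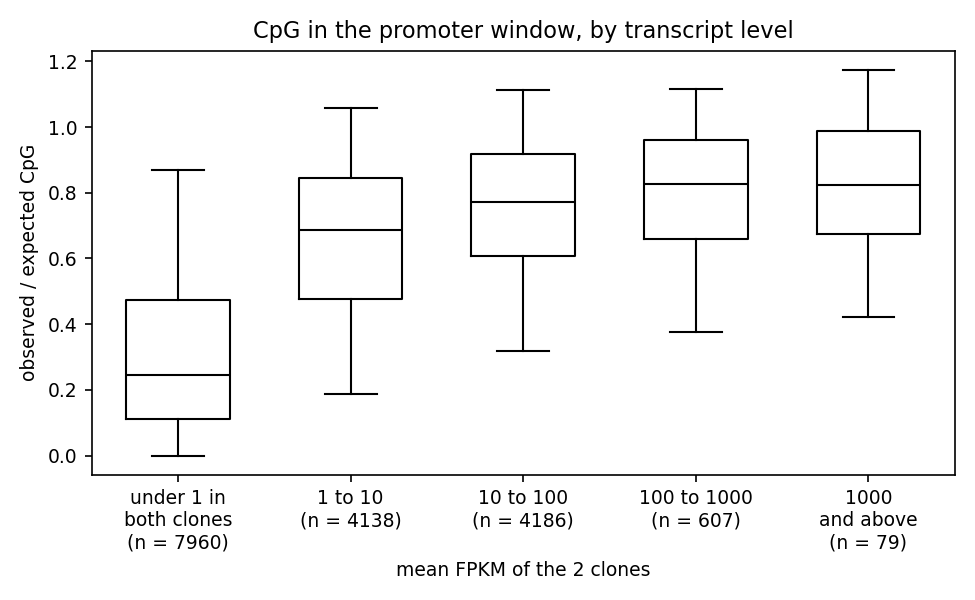
Observed over expected CpG in the 250 bases before the RefSeq start, for entries under 1 FPKM in both WT clones and for expressed entries by mean FPKM; boxes span the quartiles, black lines are medians and whiskers reach the 5th and 95th percentiles over entries. The median is 0.244 for silent entries and 0.687 to 0.826 for expressed ones.

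Of 3 short motifs, 2 differed in frequency between expressed and silent entries by a wide margin and CCAAT by little. GGGCGG itself holds a CpG and TATAAA is all A and T. Their frequencies therefore depend on base composition, which was not adjusted for, and are not separate from the CpG difference. Each was searched on both strands of the 250 bases. TATAAA, the core of the TATA box, stood in 7.62% of expressed and 19.7% of silent entries, against 13.3% of the 17530 entries with a window and 12.4% of all 32851 windows of the table. GGGCGG, the core of the GC box, stood in 65.8% and 24.5%, against 46.6% of entries and 32.7% of all windows. CCAAT stood in 41.8% and 37.2%, against 39.5% of entries and 33.8% of all windows. Among expressed entries GGGCGG did not rise with level, at 64.3% from 1 to 10 FPKM and 54.4% at 1000 FPKM or more. Among replication-dependent histone genes with a window, 61 in all, 82.0% held CCAAT and 47.5% held TATAAA, while among 935 olfactory receptors 39.5% held TATAAA and 0.642% held GGGCGG. Of 64 ribosomal protein genes, 84.4% had a CpG ratio of at least 0.6. A match is a run of letters and does not show that a factor binds there.

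The following windows show the range, with CpG in capitals: Ppia (chr11:6415617-6415866, plus strand), highly expressed, with 38 CpG; Sox2 (chr3:34649745-34649994, plus strand), with 27; Hist1h2bl (chr13:21716184-21716433, minus strand), a histone gene, with 11 CpG and CCAAT; and Alb (chr5:90460620-90460869, plus strand), the liver gene for albumin at the lowest value in both clones, with 2. They are RefSeq sequences of GRCm38.p6, printed in the direction of transcription.
Ppia: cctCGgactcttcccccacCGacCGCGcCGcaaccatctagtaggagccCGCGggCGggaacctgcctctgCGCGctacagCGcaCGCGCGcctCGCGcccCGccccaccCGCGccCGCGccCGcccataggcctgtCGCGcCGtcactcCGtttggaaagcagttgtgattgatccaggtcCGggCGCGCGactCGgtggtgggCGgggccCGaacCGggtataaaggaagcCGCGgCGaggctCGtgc
Sox2: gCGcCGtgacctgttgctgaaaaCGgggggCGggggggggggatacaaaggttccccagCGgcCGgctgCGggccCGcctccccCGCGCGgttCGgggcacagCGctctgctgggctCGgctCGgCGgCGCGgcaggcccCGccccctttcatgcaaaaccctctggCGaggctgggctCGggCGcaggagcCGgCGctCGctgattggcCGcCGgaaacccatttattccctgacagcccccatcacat
Hist1h2bl: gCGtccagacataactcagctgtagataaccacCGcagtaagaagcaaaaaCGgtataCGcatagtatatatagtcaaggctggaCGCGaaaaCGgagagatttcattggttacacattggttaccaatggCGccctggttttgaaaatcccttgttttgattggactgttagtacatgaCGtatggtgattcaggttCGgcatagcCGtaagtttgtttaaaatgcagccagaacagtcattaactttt
Alb: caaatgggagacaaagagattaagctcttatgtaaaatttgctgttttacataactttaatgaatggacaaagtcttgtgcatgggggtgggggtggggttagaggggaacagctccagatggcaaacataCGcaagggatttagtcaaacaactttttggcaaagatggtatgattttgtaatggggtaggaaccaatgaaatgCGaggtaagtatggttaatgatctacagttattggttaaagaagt

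The clones gave closely similar levels for most entries. Over all entries, log2(FPKM + 1) had a Pearson correlation of 0.989 between the clones and FPKM a Spearman correlation of 0.979, given as descriptions across entries, which are not independent replicates. Among the 11707 expressed entries, 82.0% were within 1.5-fold of each other and 95.7% within 2-fold. The median ratio of replicate 2 to replicate 1 was 0.896, or -0.16 on the log2 scale, close to the ratio of the summed FPKM, 0.897. Of the expressed entries, 67.5% were higher in replicate 1. The interquartile range of the log2 ratio was 0.62 for entries with a mean of 1 to 2 FPKM, 0.63 from 2 to 5 FPKM, 0.46 from 10 to 30 FPKM, 0.39 from 100 to 1000 FPKM and 0.14 above, so the spread was narrower at higher levels. The share within 2-fold was 91.9% from 2 to 5 FPKM and 97.9% of the 146 entries at 1000 FPKM or more. It was 96.9% from 1 to 2 FPKM, but there both values are at least 1 FPKM by selection and their mean is under 2 FPKM. That limits how far apart they can be, so the share and interquartile range of this bin cannot be set against the others.

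Of the expressed entries, 508 (4.34%) were at least 2-fold apart, 395 (3.37%) higher in replicate 1 and 113 (0.965%) higher in replicate 2. Centred on the median ratio, which balances the directions by construction, the split was 227 to 169 entries. With 1 clone a line, no test of these differences was possible, and the values are a description of the 2 clones.

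The widest differences lay in a run of 8 neighbouring entries on chromosome 12, all higher in replicate 2. Klhdc1 was listed at 1.57 FPKM in replicate 1 and 4857 FPKM in replicate 2, and Klhdc2 at 37.5 and 4956 FPKM. Both are Kelch-domain genes that lie side by side. Pole2, a subunit of DNA polymerase epsilon, stood at 43.6 and 1967 FPKM. Lrr1, a substrate receptor of a ubiquitin ligase, was at 6.69 and 1956 FPKM, and Nemf, a ribosome quality control factor, at 41.0 and 1564 FPKM. Mgat2, a glycosyltransferase of the Golgi, was at 8.81 and 291 FPKM. The noncoding 9330151L19Rik was at 0.647 and 571 FPKM. The smallest difference was that of Rpl36al, a ribosomal protein paralog, at 387 and 1093 FPKM. Together the run held 0.0694% of the sum in replicate 1 and 2.53% in replicate 2. Its neighbours on either side did not share the difference: Rps29 stood at 2429 and 1868 FPKM and Arf6 at 40.0 and 39.0 FPKM. RefSeq places the genes Rn7s1 and Rn7s2, which encode the 7SL RNA of the signal recognition particle, at the ends of the run, next to Lrr1 and next to Nemf. Neither is among the entries, and their part in these values was not tested. Klhdc1 and Klhdc2 were among the 10 most abundant entries of replicate 2, and Pole2 ranked first among the replication genes by mean.

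Beyond the entries counted in this run, those most above replicate 1 in replicate 2 were smaller in level. The unnamed model 1110034A24Rik, which matched no RefSeq gene and so had no position here, stood at 9.03 and 204 FPKM. RefSeq places the gene Dnaaf2 inside the run, between Mgat2 and 9330151L19Rik, and no entry matched it by name. Whether 1110034A24Rik belongs to the run was not tested. Grb10, an imprinted growth factor receptor adaptor, stood at 10.4 and 61.1 FPKM, and Enpp2, the enzyme autotaxin, at 2.11 and 10.7 FPKM. AF357359, which its name alone placed outside the short RNA classes, whatever its RNA type, stood at 5.57 and 34.4 FPKM. The last belongs to a second run on chromosome 12, of 11 neighbouring entries around the imprinted noncoding RNA Rian, which was at 3.68 and 9.83 FPKM, all at least 2-fold higher in replicate 2. That run lies in the Dlk1-Meg3 imprinted domain, and several of its microRNA entries were near the lowest value in replicate 1, such as Mir136 at 0.0094 and 1.95 FPKM.

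In the other direction, the widest differences were those of histone genes and of genes outside the histone class. Neighbours were searched only as runs of at least 4 entries, so whether the genes named here share a locus with each other or with histone genes was not tested. Fxyd6, a regulator of the sodium pump, stood at 56.9 FPKM in replicate 1 and 7.55 FPKM in replicate 2, Hfe, a regulator of iron uptake, at 580 and 82.0 FPKM, and Txnip, an inhibitor of thioredoxin and glucose uptake, at 210 and 43.7 FPKM. Inpp5d was at 34.3 and 6.35 FPKM and Got1l1 at 15.9 and 3.36 FPKM. The unnamed 4930470H14Rik and Gm15441 stood at 135 and 18.3 FPKM and at 72.7 and 16.2 FPKM.

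Of the 67 expressed replication-dependent histone genes, 55 were higher in replicate 1 and 15 at least 2-fold so, against 3.37% of all expressed entries, and after centring 49 and 12 were. Hist1h1t was at 95.5 and 16.5 FPKM, Hist1h2ac at 79.9 and 15.8 FPKM and Hist1h2be at 322 and 65.1 FPKM. A run of 6 neighbours on chromosome 13, from Hist1h3e at 647 and 206 FPKM to Hist1h3d at 280 and 80.8 FPKM, was at least 2-fold higher in replicate 1. The most abundant histone genes differed less, Hist1h2bl by 1.33-fold.

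**Figure D5:**
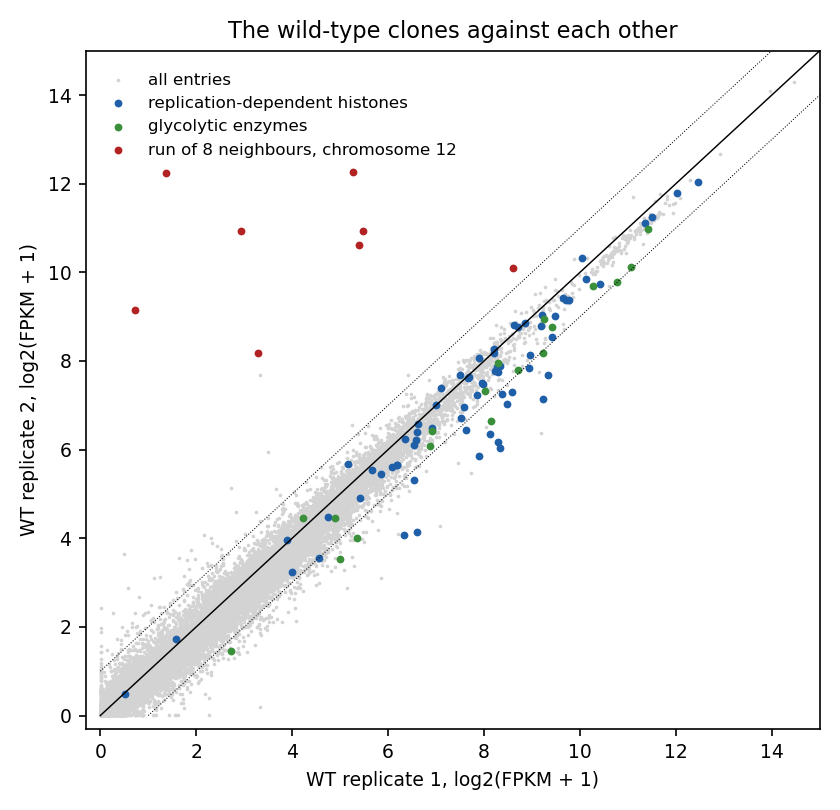
Each entry's log2(FPKM + 1) in WT replicate 1 (x axis) and WT replicate 2 (y axis), with the line of equality and dotted lines at a difference of 1 on either side. The 8 neighbouring entries of the run on chromosome 12 (red) lie above the dotted line, histone genes (blue) reach below the lower one, and glycolytic enzymes (green) lie below the line of equality but for 1.

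Glycolytic enzymes and the naive and primed lists also differed in a direction shared by most members. Of 18 glycolytic enzymes, 17 were higher in replicate 1, also after centring, against 67.5% of all expressed entries. Those at least 2-fold higher in replicate 1 numbered 5, or 4 after centring, against 3.37% of all expressed entries. Ldhb, for example, a lactate dehydrogenase subunit, stood at 282 and 98.4 FPKM. The median log2 difference of the class was -0.75, and -0.59 after centring, against -0.16 for all expressed entries.

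Of 19 naive factors, 18 were higher in replicate 1, also after centring, against 67.5% of all expressed entries. Those at least 2-fold higher numbered 4, Tfcp2l1, Tcl1, Socs3 and Pecam1, and 2 after centring. Of 16 expressed primed epiblast genes, 14 were higher in replicate 2, and 16 after centring. In that list 7 were at least 2-fold higher in replicate 2, against 0.965% of all expressed entries, among them Zic2 at 2.93 and 10.6 FPKM and Dnmt3b. The core list had members on both sides, with 5 higher in replicate 1 and 9 in replicate 2, and none 2-fold apart. Extraembryonic endoderm genes were higher in replicate 2 in 11 of 13 cases, 4 of them at least 2-fold, such as the endocytic receptor gene Lrp2 at 2.68 and 12.4 FPKM. Of the 37 expressed fibroblast genes, 27 were higher in replicate 1 and 5 at least 2-fold so, with 1 at least 2-fold higher in replicate 2, while their summed share was 0.111% in both clones. The count of 27 is a share close to the 67.5% of all expressed entries that were higher in replicate 1.

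Genes of ribosome assembly ran the other way. Of 49 nucleolar ribosome biogenesis genes, 33 were higher in replicate 2 as deposited and 42 after centring, none of them 2-fold apart, where 67.5% of all expressed entries were higher in replicate 1. Of 85 expressed ribosomal protein genes, 82 were higher in replicate 1 as deposited and 66 after centring, by a median of -0.25 and -0.10 on the log2 scale. Translation factors were higher in replicate 1 in 47 of 71 cases as deposited and in 22 of 71 after centring. The count as deposited is close to the 67.5% of all expressed entries, so it shows no direction of this class beyond that of the whole profile, and the direction flips with the centring.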

How the data were processed

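RNA sequencing of ribosomal-RNA-depleted total RNA was analysed for the 2 WT samples. The deposited files hold 1 spike-in normalized FPKM per entry and library, per the file headers. How they were scaled: not given in the sources used here. The submitters' processing notes name Bowtie 0.12.8, TopHat2 2.0.9, affy, HTSeq, edgeR and the build mm9, without roles. Depth is unknown, so no counting interval is given.

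The 92 spike-ins were left out. In 1 file 25 names stood as spreadsheet day numbers and in the other as dates; they were matched by calendar and not named. Entries were classed by name pattern and by RefSeq type. Hosts and neighbours came from RefSeq gene positions on GRCm38, joined to the entries by name. A host was a gene whose bounds enclose the short entry, on either strand. Values are as deposited; correlations used log2(FPKM + 1). An entry was called expressed at 1 FPKM or above in both clones. Means are over 2 clones with their SD. Runs are at least 4 consecutive entries, each at least 2-fold apart in 1 direction. Calculations used Python 3.11.15, numpy 2.4.6, pandas 2.3.3 and scipy 1.17.1 and were tested on simulated data.

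Named entries are the 20 highest, the 20 highest that are not short RNA, the 3 highest of each class and list, all core and naive pluripotency genes, and the 10 per direction most apart between the clones at a mean of at least 5 FPKM that are not short RNA. Others, such as members of runs and microRNA clusters, Kat2a, Ldhb and the entries that illustrate a count, were chosen after their values were seen. A few entries that this rule names are not reported here. The members and lists were chosen with earlier results of these data known. Alternatives were other thresholds, scalings, pseudocounts and filters, and leaving out each clone.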

Additional observations from a re-analysis of the deposited data

How the results depend on the processing

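Of 32 alternatives to the 7 summary values, 19 left the value within the tolerance set for it, which for the count of expressed entries was 1.5 times, and 13 moved it, with no change of direction. Without short RNA entries the top 100 held 38.01% and ribosomal protein genes 25.45% of the sum that remained. Entries within 2-fold were 96.16% with each clone rescaled to a sum of 1000000, 96.62% centred on the median ratio and 97.59% at 5 FPKM. The Pearson correlation was 0.9875 with a pseudocount of 0.1, 0.9755 over entries expressed in at least 1 clone and 0.9908 without the run on chromosome 12, an alternative chosen after seeing the data. The difference in median CpG ratio was 0.5036 at 0.5 FPKM, 0.4807 at 2 FPKM, 0.4564 without short RNA entries and chemosensory receptors, and 0.4814 to 0.4817 with either clone left out. Expressed entries numbered 10363 at 2 FPKM and 12902 at 0.5 FPKM. No paired analysis was possible because the values come from no test and 1 group. Depth is unknown, so the precision of low values cannot be given; 123 entries shared both values with another entry, in 50 distinct pairs of values.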

Other observations

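Y-linked transcripts were present in both clones, whose lines have a male karyotype per the labels. Of 9 Y-linked genes, 3 were expressed in both, against 50.3% of all entries. Eif2s3y, a translation initiation factor subunit, stood at 62.4 FPKM in replicate 1 and 35.2 FPKM in replicate 2. Ddx3y, an RNA helicase, was at 24.2 and 10.5 FPKM, and Uty, a histone demethylase paralog, at 12.4 and 6.60 FPKM, all lower in replicate 2. Sry, the testis-determining gene, was at the lowest value in both clones. Xist, the RNA that silences an X chromosome in female cells, was listed at 0.286 and 0.310 FPKM, and its antisense partner Tsix at 0.436 and 0.709 FPKM.

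Genes often used as references in quantitative PCR spanned a wide range of levels. Of 15, all were expressed, against 50.3% of all entries. As deposited, 13 were higher in replicate 1, against 67.5% of all expressed entries, and none was 2-fold apart. After centring on the median ratio 11 were higher in replicate 1. After Eef1a1, Ppia and Rpl13a came Actb, and Gapdh stood at 310 and 246 FPKM, Hprt at 187 and 153 FPKM and Tbp, the TATA-binding protein, at 21.0 and 18.4 FPKM. The lowest was Gusb, at 11.2 and 10.7 FPKM. Of these 15, 11 reached 100 FPKM in both clones.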
